A study of Arabidopsis thaliana with 12 samples.

Results

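AT3G23940 encodes the dihydroxyacid dehydratase of Arabidopsis, and it was followed here through the probe whose platform annotation names this gene alone. It is 1 of 689 loci that could be named from a probe with a single gene, and no other of the 3439 probes carries its name, alone or with other genes. The gene was chosen because its signal differed between the groups, so that difference is given as a description without a test. Total RNA came from wild-type plants of ecotype Landsberg, with no mutant or transgene in either group. The first group received bromoxynil at 500 µM, a herbicide of the nitrile class that stops electron flow at photosystem II, and the second received water. Both had spent 12 h in darkness and were sampled after 30 min back in the light. Each group had 6 arrays, numbered 1 to 6 in the titles. The labels name neither a tissue nor separate plants, so the spread between arrays may be technical.

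Dihydroxyacid dehydratase removes water from dihydroxy acids to give the keto acids from which valine, isoleucine and leucine are made. The enzyme works in the plastid and carries an iron-sulphur cluster. It stands between ketol-acid reductoisomerase, which makes its substrates, and the aminotransferases, which turn keto acids into amino acids. An earlier step of the pathway is that of acetohydroxyacid synthase, a target of several herbicide classes that bromoxynil does not belong to.

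The deposited values are intensities relative to the brightest feature of each array, which has the value 100. Array medians were higher with bromoxynil, at 0.644 ± 0.0136, against 0.467 ± 0.0202 with water (SD, n = 6 each). Of the green tissue genes checked, all 7 were measured, none was listed at 0 on any array, and 4 lay above the array median on all 12 arrays. Their summed intensity was 30.4 to 39.5 with bromoxynil and 39.5 to 49.8 with water, a sum over different probes of which 5 had lower and 2 had higher means with bromoxynil. As deposited, the means of the brightest of them went opposite ways. They were 7.82 with bromoxynil and 17.5 with water for LHB1B2, an antenna protein, and 19.9 with bromoxynil and 16.8 with water for PSBW, a photosystem II subunit. These means are not normalised. Of the 7, all but PSAN kept the direction of their means by median percentile within the array. LHB1B2 was at 99.0 with bromoxynil and 99.5 with water, and PSBW at 99.7 with bromoxynil and 99.5 with water. PSAN had a lower mean with bromoxynil, at 5.02 against 6.55 with water. Its median percentile within the array was higher, at 98.6 with bromoxynil and 98.4 with water. In RNA of whole samples, a change in the share of a cell type and a change in RNA per cell cannot be told apart.

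As deposited, AT3G23940 was bright on the bromoxynil arrays and below the array median on the water arrays. Its relative intensity on bromoxynil arrays 1 to 6 was 2.08, 2.24, 2.57, 2.42, 2.77 and 2.86. On water arrays 1 to 6 it was 0.239, 0.325, 0.364, 0.335, 0.365 and 0.394. The lowest bromoxynil array was thus well above the highest water array, and the groups did not overlap. The means were 2.49 ± 0.30 with bromoxynil and 0.337 ± 0.0538 with water (SD, n = 6 each). The coefficient of variation was 12.0% with bromoxynil and 16.0% with water, so the relative spread was of similar size at the high and the low level. Groups of 6 arrays did not overlap, in either direction, for 36.5% of all probes on quantile-normalised values, and with bromoxynil higher for 15.6%.

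**Figure D1:**
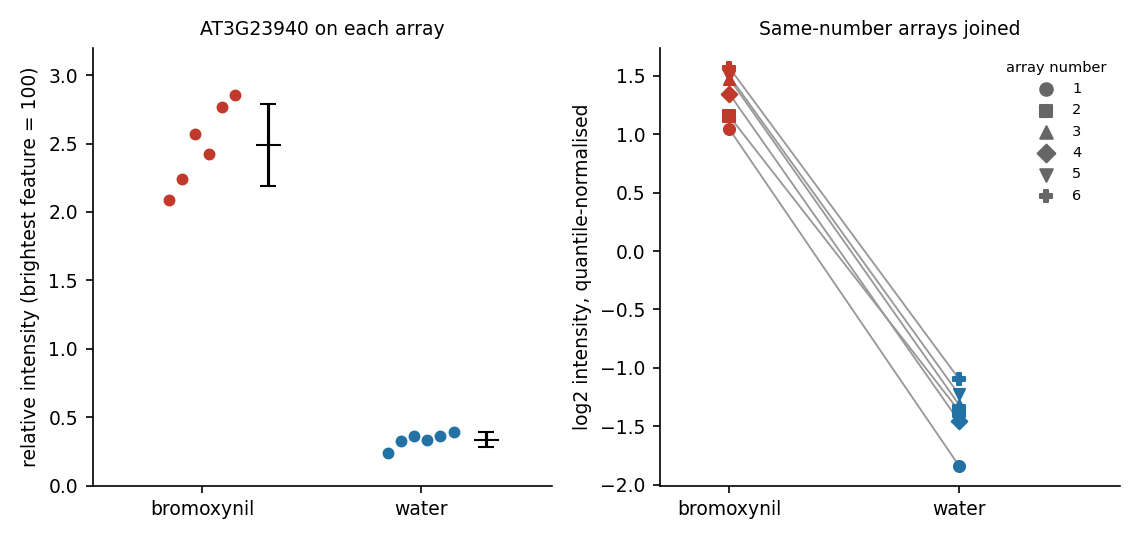
The left plot shows the relative intensity of AT3G23940 on each of 6 bromoxynil arrays (red) and 6 water arrays (blue), ordered by array number, with the mean and SD beside them. The right plot joins same-number arrays on the quantile-normalised log2 scale; each of the 6 lines lies higher at the bromoxynil end, and number 1 is the lowest in both groups.

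The probe also changed its standing within each array. Counted from the brightest of 3439 probes, it ranked between 117 and 193 with bromoxynil (median 132.5) and between 1991 and 2699 with water (median 2270.5). In percentiles this was 95.8 ± 0.886 with bromoxynil and 33.3 ± 7.0 with water (SD, n = 6 each). With the place of the probes adjusted, a step used for the fold as well, the percentiles were 94.2 ± 1.04 with bromoxynil and 45.5 ± 7.63 with water, and water arrays 2 and 6 then lay above the middle of the array, at 53.6 and 55.4. A rank does not depend on how an array is scaled as a whole. Intensities of different probes depend on the probe as well as the transcript, so these ranks do not order transcripts by abundance. Relative to the array median, the signal was 3.88 ± 0.536 times the median with bromoxynil and 0.720 ± 0.107 times the median with water (SD, n = 6 each).

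**Figure D2:**
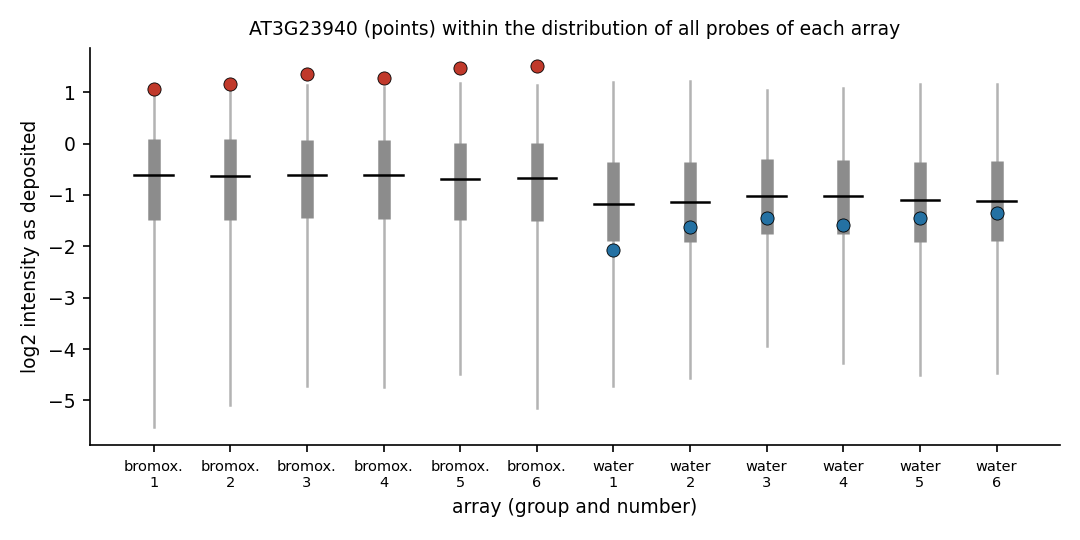
Each column is an array, with the log2 intensity of all 3439 probes as deposited: the thin line spans the 5th to 95th percentile, the thick bar the quartiles, and the short black line the median. The point is AT3G23940, near or above the 95th percentile on the bromoxynil arrays (red) and below the median on the water arrays (blue).

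On quantile-normalised values, in which all arrays share a single distribution, the log2 level of AT3G23940 was 1.35 ± 0.21 with bromoxynil and -1.38 ± 0.25 with water (SD, n = 6 each). The log2 change was 2.73 ± 0.13 (SE), a fold of 6.64. Arrays of the same number gave 6 separate folds, which were 7.37, 5.74, 6.91, 6.97, 6.61 and 6.34 for numbers 1 to 6. The pairs therefore all pointed the same way, with number 2 the smallest and number 1 the largest. The pooled spread of AT3G23940 within the groups was 0.233 on the log2 scale, against a median of 0.313 over all probes.

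How large the change was depended on the scale more than on the array number. As deposited, with no normalisation, the fold was 7.43, and the 6 pairs ran from 6.89 to 8.72. With each array centred on its median it was 5.39, and the pairs ran from 4.83 to 5.90. Centring on the 75th percentile gave 5.66, with pairs from 5.06 to 6.37. A pseudocount of 0.1 before normalisation, in place of raising zeros to the lowest positive value, gave 5.45. The smallest fold was 4.20, with pairs from 3.36 to 4.75, after each probe's place on the array, inferred from its number, was adjusted for. On each of these 6 scales the lowest bromoxynil array lay above the highest water array, by a gap that ran from 1.56 in log2 with the place adjusted to 2.40 as deposited. The median change of all probes moved with the scale too, from -0.19 with medians centred to 0.28 as deposited, against -0.037 on quantile-normalised values.

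**Figure D3:**
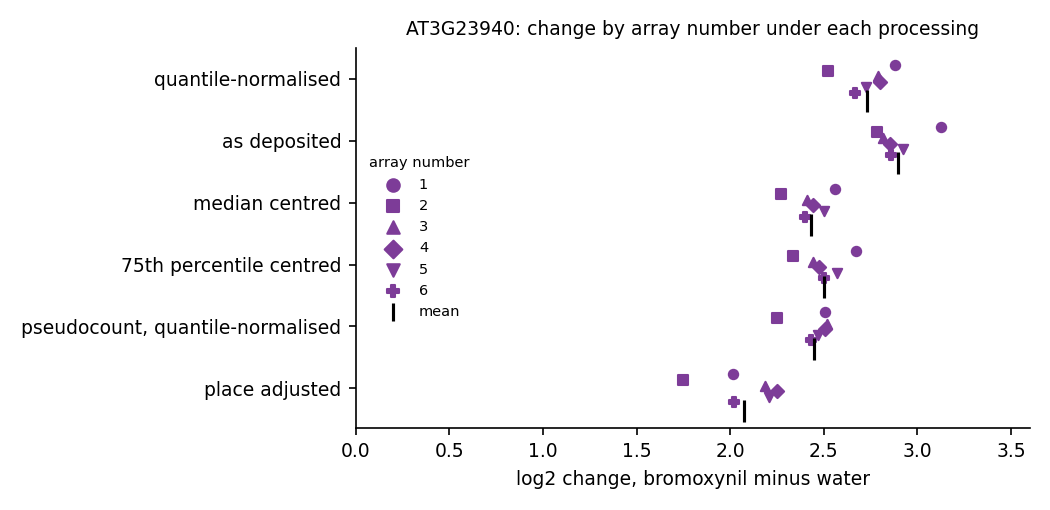
Log2 change of AT3G23940, bromoxynil minus water, for each of the 6 array numbers (symbols) and as the mean (vertical line) on 6 scales of processing. All values lie between 1.75 and 3.12, and the place-adjusted ones are the lowest group.

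By rank of its rise, AT3G23940 stood at 14 of 3439 probes and at 3 of 692 probes with a single gene on quantile-normalised values. It stood at 12 of all probes as deposited and with either centring, at 4 with the pseudocount, and at 41 with the place adjusted. Among the 692 single-gene probes it stood at 4 as deposited and with either centring, at 1 with the pseudocount and at 10 with the place adjusted. Among the 499 of them above the dimmest 25%, it stood at 3 as deposited and with either centring. There it stood at 1 with the pseudocount and at 5 with the place adjusted. On quantile-normalised values the only gene of these 499 with a larger rise was AT3G25680, with a log2 change of 2.97. Next below were AT4G31930 and AT4G09040, both at 2.68. Their relative intensities were 1.54 ± 0.244 with bromoxynil and 0.296 ± 0.234 with water for AT4G31930. For AT4G09040 they were 1.697 ± 0.181 with bromoxynil and 0.234 ± 0.0673 with water (SD, n = 6 each). These ranks describe the choice of the gene and are no evidence for it.

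Probes with neighbouring numbers were also higher with bromoxynil. The AT3G23940 probe has number 2424. Of the 12 probes within 6 numbers of it, 7 rose, 0 fell and 5 did not pass the test at an adjusted p under 0.05 (limma), whereas 24.5% of all probes rose and 29.9% fell. Their log2 changes ran from 0.065 to 2.35 with a median of 0.996, all below that of AT3G23940. AT1G73120, at the next number, had 0.614 ± 0.0442 with bromoxynil and 0.232 ± 0.0385 with water (SD, n = 6 each) and rose by 1.02 in log2. A probe without a single gene name that lies 2 numbers on had 6.34 ± 1.30 with bromoxynil and 1.27 ± 0.288 with water, and rose by 2.35.

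The log2 changes repeated along the probe numbers every 288 numbers, a distance found in a difference between water arrays. At that distance their rank autocorrelation over probes was 0.379, and 0.140 after the place was adjusted for. Over the 165 other probes within 6 places of AT3G23940 in any repeat, the median log2 change was 0.55, with quartiles of -0.029 and 1.05. Of these, 79 rose, 14 fell and 72 did not pass the test, and the highest change among them was 2.63. No probe near that place changed as much as AT3G23940. Subtracting what probes at similar places had in common left AT3G23940 with a log2 change of 2.07 ± 0.11 (SE), while the 12 neighbouring numbers then had a median of 0.39, with 5 rises and 2 falls, against 23.8% of all probes rising and 23.6% falling. What the remaining neighbours' rise contributes to the value of AT3G23940 was not tested.

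**Figure D4:**
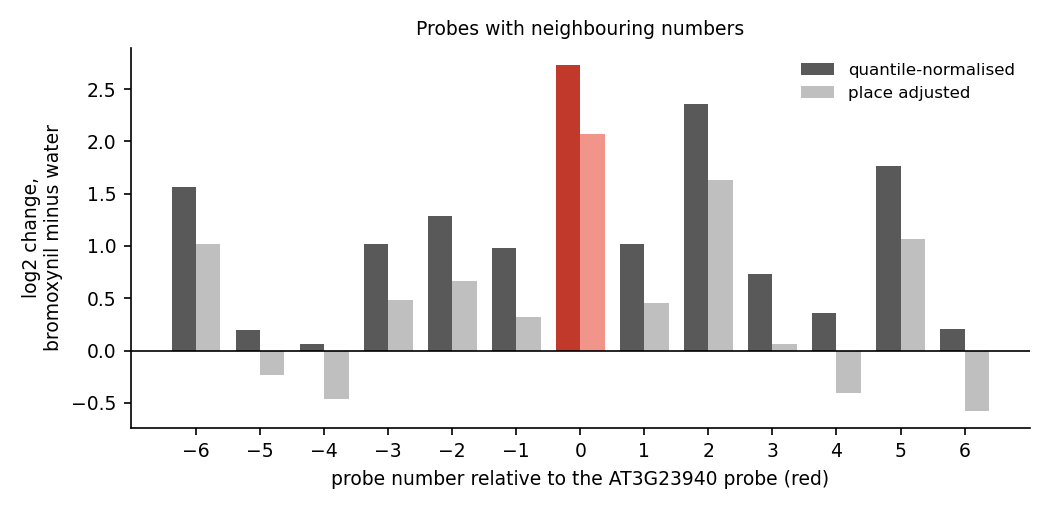
Log2 change, bromoxynil minus water, of the AT3G23940 probe (red) and of the 6 probes on either side by probe number, on quantile-normalised values (dark bars) and with the place adjusted (light bars). AT3G23940 has the tallest bar on both scales, and the probe 2 numbers on comes next with 2.35 and 1.63.

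Within the groups, AT3G23940 varied with the array number. As deposited and on quantile-normalised values, array 1 gave the lowest and array 6 the highest value with bromoxynil, and the same was true with water. With the place adjusted, water array 4 was the lowest in water, at -1.24 in log2 against -1.22 on water array 1. Over the 6 numbers, the bromoxynil and water values on the quantile-normalised scale had a Pearson r of 0.870 (exact permutation p = 0.0111, two-sided, 0.0133 adjusted over 6 scales) and a Spearman rho of 0.943 (exact permutation p = 0.0167, adjusted 0.0200). Without numbers 1 and 6, the ones farthest from the median in water, r over the rest was 0.567 on this scale and 0.570 with the pseudocount. It was 0.929 as deposited, 0.902 with the 75th percentile centred and 0.817 with medians centred. With the place adjusted, r over the 6 numbers was 0.504 (exact permutation p = 0.311) and rho was 0.543 (p = 0.297 by exact permutation), and r was 0.803 without numbers 2 and 6, which were then farthest from the median. The labels do not say what arrays of a number share, nor that the numbers are independent. The SD of the 6 same-number log2 changes was 0.126.

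The next question was whether other genes of the pathway, and genes of related amino acid and iron-sulphur metabolism, differed between bromoxynil and water. The lists held 162 loci, of which 7 besides AT3G23940 had a probe of their own, spread over 5 of 8 lists. Among these 7, 2 rose, 2 fell and 3 did not pass the test (limma, adjusted p under 0.05 over all probes), so 4 of 7 were called where 54.4% of all 3439 probes were. The median log2 change of the 7 was -0.46, against -0.037 over all probes. The pantothenate, plastid iron-sulphur assembly and aromatic amino acid lists had no measured gene.

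Of the 21 loci of branched-chain amino acid synthesis, the only one measured besides AT3G23940 was AT3G58610, ketol-acid reductoisomerase, the step just before. Its relative intensity had a lowest, median and highest value of 0.262, 0.298 and 0.405 with bromoxynil and 0.269, 0.338 and 0.377 with water. As deposited the groups overlap almost wholly. On quantile-normalised values AT3G58610 fell, with a log2 change of -0.46 ± 0.13 (SE, n = 6 per group) and an adjusted p of 0.00951 (limma), and it was lower in all 6 same-number pairs. The fall also passed with medians centred (adjusted p = 0.00421, limma), with the 75th percentile centred (adjusted p = 0.00800, limma) and with the pseudocount (adjusted p = 0.00939, limma). It passed with each array left out in turn as well. It did not pass as deposited, where the change was -0.073 (adjusted p = 0.667, limma). With the place adjusted the change was 0.082 (adjusted p = 0.630, limma). With consecutive array numbers averaged the adjusted p was 0.0944 (limma). The probe is among the dimmest 25%. On none of the 6 scales did AT3G58610 rise as AT3G23940 did, and its highest same-number difference was 0.44 in log2, with the place adjusted.

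ETFQO (AT2G43400) passes electrons from branched-chain amino acid breakdown to ubiquinone in mitochondria. Its lowest, median and highest relative intensities were 0.995, 1.02 and 1.08 with bromoxynil and 0.435, 0.551 and 0.881 with water. The groups did not overlap as deposited, but they did after quantile normalisation, where ETFQO rose by 0.38 ± 0.13 (SE, n = 6 per group) in log2 with an adjusted p of 0.0316 (limma). With medians centred the adjusted p was 0.0672 (limma). It was also above the threshold, at 0.0528 to 0.0627 (limma), without any of bromoxynil arrays 4, 5 and 6 or water arrays 1, 2, 4 and 6. With the place adjusted, where 47.4% of all probes were called, the change of ETFQO was 0.76 (adjusted p = 0.00217, limma).

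Plastid iron-sulphur proteins other than the dehydratase were represented by 2 of 17 listed loci, which moved in opposite directions. AT2G04700, the catalytic subunit of ferredoxin-thioredoxin reductase, had 0.215, 0.277 and 0.341 as its lowest, median and highest relative intensity with bromoxynil and 0.467, 0.593 and 0.851 with water. The groups did not overlap, and AT2G04700 fell, with a log2 change of -1.51 ± 0.19 (SE, n = 6 per group) and an adjusted p of 3.94e-05 (limma). It passed on every scale tried. THIC (AT2G29630), which makes the pyrimidine part of thiamine, a cofactor of acetohydroxyacid synthase, had 0.7997, 0.926 and 1.001 with bromoxynil and 0.388, 0.467 and 0.708 with water. It rose by 0.43 ± 0.13 (SE) in log2 with an adjusted p of 0.0167 (limma), and by 0.84 with the place adjusted. With consecutive numbers averaged the adjusted p of THIC was 0.129 (limma).

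The other amino acid genes did not pass the test. AT5G10920, argininosuccinate lyase of arginine synthesis, had deposited intensities of 0.594 ± 0.180 with bromoxynil and 0.539 ± 0.174 with water (SD, n = 6 each), with overlapping groups. Its log2 change was 0.14 as deposited but -0.27 on quantile-normalised values, and neither passed. AT-HF (AT4G26900), which acts in histidine synthesis, had 0.145 ± 0.0655 with bromoxynil and 0.296 ± 0.142 with water, and the groups overlapped through water array 3 alone. AT3G53580, the diaminopimelate epimerase of lysine synthesis, had 0.143 ± 0.126 with bromoxynil and 0.144 ± 0.118 with water, and was listed at 0 on 2 bromoxynil arrays. With the array number as a replicate block on quantile-normalised values, AT5G10920 (adjusted p = 0.0132, limma) and AT-HF (adjusted p = 0.00122, limma) passed. Their log2 changes were -0.27 and -1.14, in a fit that called 59.8% of all probes. With the place adjusted as well, a combination chosen after seeing the data, 1782 of 3439 probes were called. There AT-HF passed (adjusted p = 0.00118, limma), while AT5G10920 had a change of 0.12 and did not.

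**Figure D5:**
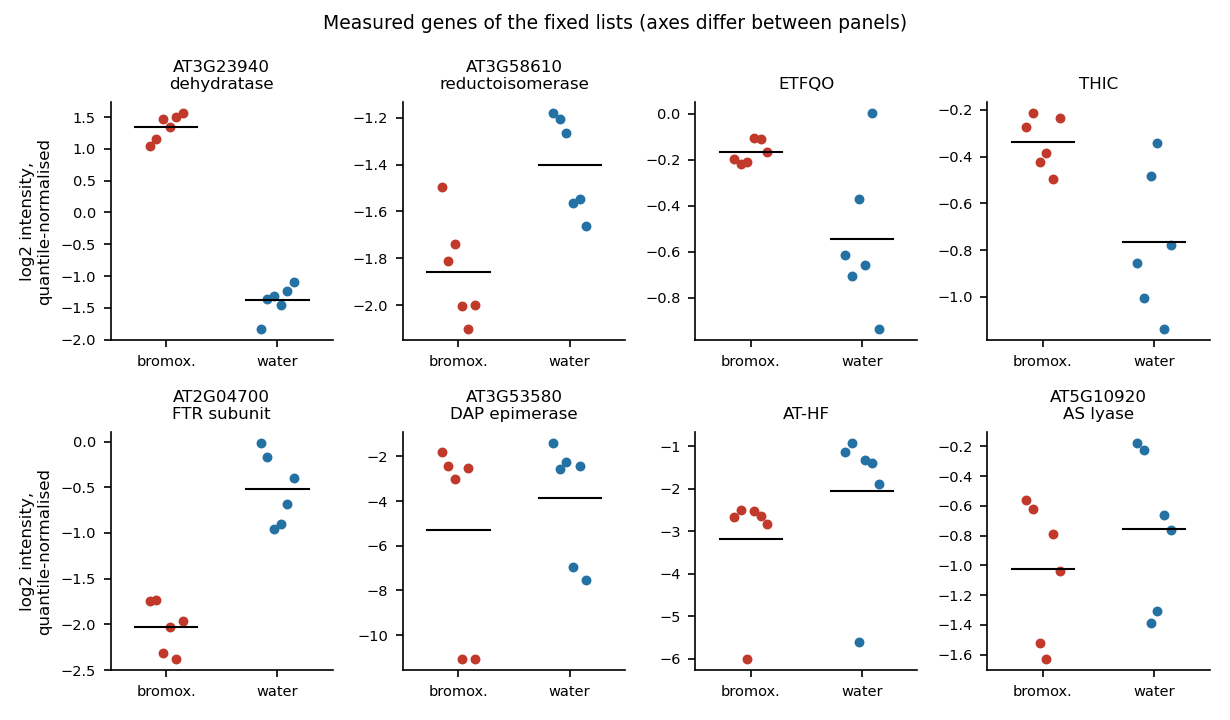
Quantile-normalised log2 intensity of AT3G23940 and the 7 other measured genes of the lists, with the 6 bromoxynil arrays in red to the left of the 6 water arrays in blue and a line at each mean. Vertical axes differ between panels; of these genes, AT3G23940 and AT2G04700 alone have groups that do not overlap on this scale, in opposite directions.

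The genes whose levels most resembled those of AT3G23940 over the 12 arrays were AT2G28540, AT5G02830, AT3G47650, CML41 (AT3G50770) and AT1G73120. Their Pearson correlations with it on quantile-normalised values lay between 0.958 and 0.976, chosen from 498 single-gene probes above the dimmest 25%, of which 38 exceeded 0.9. AT3G47650 encodes a plastid chaperone of Rubisco assembly, and CML41 a calmodulin-like calcium sensor. These correlations contain the difference between the groups, which all 5 genes share. AT2G28540 had 1.62 ± 0.111 with bromoxynil and 0.421 ± 0.0650 with water, and CML41 had 1.19 ± 0.0970 with bromoxynil and 0.416 ± 0.0383 with water (SD, n = 6 each). AT5G02830 and AT1G73120 lie within 6 probe numbers of AT3G23940, as do 6 of the 498 probes compared. With the place adjusted the correlation was 0.991 for CML41, 0.959 for AT2G28540, 0.912 for AT5G02830, 0.910 for AT3G47650 and 0.792 for AT1G73120.

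When each group was centred on its own mean, so that the difference between the groups was removed, other genes came first. AT4G17070 had the highest correlation of deviations with AT3G23940, at 0.941 over 12 arrays, followed by AT1G21730 (0.889), AT5G01860 (0.827), IYO (AT4G38440, 0.819) and AT5G63290 (0.801). IYO is an RNA polymerase II associated protein. On array 1 of both groups AT4G17070, AT1G21730, AT5G01860 and IYO were at their lowest, as was AT3G23940. AT5G63290 was lowest on bromoxynil array 2 and water array 1. Arrays of the same number deviated together, so these correlations do not rest on 12 independent points. Between the groups these 5 went in different directions, with log2 changes of 1.41 for AT4G17070, -0.75 for AT1G21730, 0.35 for AT5G01860, -0.90 for IYO and 1.38 for AT5G63290. AT5G01860 lies 4 probe numbers from AT3G23940. With the place adjusted the correlations of deviations were lower for all 5, at 0.528 for AT4G17070, 0.552 for AT1G21730, 0.551 for AT5G01860, 0.637 for IYO and 0.416 for AT5G63290, while that of CML41 was 0.822, against 0.332 before. The deviations of AT3G58610 correlated with those of AT3G23940 at -0.68.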

How the data were processed

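Microarray measurements of total RNA from 12 samples, 6 with bromoxynil and 6 with water by title, were used. The deposited values are intensities on a linear scale, relative to the brightest feature; scanning, background subtraction, the combination of spots and the genome build are not given in the sources used here. Between 3.14% and 4.57% of the values of an array are 0, and signal over background was not assessed. The number of arrays limits the precision.

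Values of 0 were raised to the smallest value above 0 on that array, followed by log2 and quantile normalisation. All 3439 probes were fitted in R 4.3.3 with lmFit and eBayes of limma 3.58.1, two-sided and without a block, with Benjamini-Hochberg adjustment over all probes and a threshold of 0.05. The fit was tested on simulated data. AT3G23940 has no p-value from this comparison, since the comparison chose it. Its SE comes from the pooled spread of its 6 arrays per group.

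Of 692 probes naming a single gene in the platform annotation, 690 matched a gene table of Arabidopsis by gene identifier. No gene was named from the 870 probes with several. Names were not checked against probe sequences. The gene, the lists and the alternatives were chosen with earlier results of these data known. Named genes were all measured members of the lists, the 5 most correlated over 12 arrays, the 5 most correlated in deviations from the group means, and up to 2 genes on either side by size of change.

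Deviations from the group means correlated between arrays of the same number at 0.450 to 0.530 in all 6 pairs (probes above the dimmest 25%). Each exceeded 0.1, so arrays of the same number deviated together, which the labels do not state. Correlations between arrays of different numbers are not given. A larger shared unit, such as consecutive numbers, was therefore not told apart from the number. For the place adjustment, the repeat of probe numbers was taken as the lag, from 49 to 1151, at which water arrays 1 and 2 minus water arrays 3 and 4 had the strongest rank autocorrelation. From each array's deviations from the probe means, the median within 6 places and then the median of each of 12 columns were subtracted. The places were inferred from this repeat and the number of columns was set. Neither was taken from a description of the array. Alternatives were no normalisation, centring on the median or the 75th percentile, a pseudocount of 0.1, the place adjustment, averaged consecutive numbers, a replicate block, no dim probes, another variance model and each array left out. Plots used Python 3.11.15 and matplotlib 3.10.9.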

Additional observations from a re-analysis of the deposited data

Results flagged for a closer look

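Of 42 groups of 6 arrays examined on quantile-normalised log2 values, 8 had 1 array far from the others. Chance gives about 1 in 20 for independent groups that were not selected. Some of these genes were picked for deviating with AT3G23940, and arrays of the same number deviated together. That share is therefore no fair comparison for these 8 groups. None was a group of AT3G23940 itself. AT-HF (AT4G26900) was at -6.01 on bromoxynil array 3, where the other 5 lay from -2.82 to -2.49, and at -5.60 on water array 3, against -1.88 to -0.91. AT4G17070 was at 1.497 on bromoxynil array 1, against 2.64 to 3.30, and at -0.37 on water array 1, against 1.30 to 2.02. AT1G21730 was at -2.84 on bromoxynil array 1, against -1.80 to -1.25, and at -2.70 on water array 1, against -1.10 to -0.55. IYO (AT4G38440) was at -1.58 on water array 1, against -0.32 to -0.070. AT4G17070, AT1G21730 and IYO were picked for deviating together with AT3G23940, which was also lowest on array 1 of both groups. AT3G25680 was at -0.25 on bromoxynil array 6, against 0.18 to 0.39.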

How the results depend on the processing

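The log2 change of AT3G23940 kept its direction under each alternative run for it (leaving out dim probes and the other variance model, which do not alter it, were not), and ran from 2.60 to 2.82 with each array left out in turn. It was 2.43 with medians centred, 2.45 with the pseudocount and 2.07 with the place adjusted, also when the replicate block or averaged consecutive numbers were added, combinations chosen after seeing the data. The number of probes called was 1230 with consecutive numbers averaged and 938 with the place adjusted as well, against 1872, and 1755 to 1890 with each array left out. Of the called probes, 844 were higher and 1028 lower with bromoxynil, against 1301 higher and 640 lower as deposited and 707 higher and 1168 lower with medians centred. Listed genes called were 4 of 7, 2 with consecutive numbers averaged, 6 with the replicate block and 3 to 5 with each array left out; without water array 3 AT-HF passed, at -1.89. AT3G58610 changed sign with the place adjusted (0.082), as did AT5G10920 as deposited (0.14) and with the place adjusted (0.12), alone or with the block or the averaging; none of these passed, and the cause was not tested. The replicate block changed the call of no listed gene other than AT5G10920 and AT-HF. Signal over background was not used, so what it limits was not examined.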
